A study of Mus musculus with 6 samples.

Results

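The integrins and the proteins of the focal adhesion were followed as a set of 43 listed genes, of which 39 had a probe set of their own on the arrays, out of 18193 genes measured. The 39 were 19 integrin subunits and 20 adaptor, kinase and scaffold genes. A gene was taken by its symbol in the array's annotation and was represented by its brightest probe set, the one with the highest mean log2 intensity over all 6 arrays. Itga11, Ptk2, Fermt1 and Nedd9 had no probe set to themselves in the annotation used here. Of the 39, 31 lay above the 40th percentile of mean log2 intensity and 8 were dim, namely Itga1, Itga4, Itga7, Itga10, Itgb2, Itgb3, Itgb8 and Parvb.

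The cells were Wnt1-YL, a mouse mammary tumor line derived from primary MMTV-Wnt1 tumors, in which the mouse mammary tumor virus promoter drives Wnt1 in the mammary epithelium. All groups were grown in culture with serum, insulin and EGF, and all had been transduced with a lentivirus that carries an shRNA and selected with puromycin. The shLuc group (3 arrays) carried an shRNA against luciferase, which has no target in mouse cells, and the shSca-1 group (3 arrays) an shRNA against Sca-1, the Ly6 family surface protein encoded by Ly6a. The comparison asks whether adhesion genes differ in RNA when Sca-1 is knocked down, since the study had measured adhesion to matrix proteins and integrins at the cell surface. The labels call the replicates biological and do not say that they were separate cultures, so p-values measure the spread between these samples. In bulk RNA, fewer cells of a type and less RNA per cell cannot be told apart.

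Integrins are receptors made of an alpha and a beta subunit that bind matrix proteins outside the cell. Inside, talin and kindlin bind the beta tail and activate the receptor, vinculin reinforces the link from talin to actin, and kinases and adaptors such as Src and paxillin carry signals from the site. Zyxin family proteins, tensins, filamin and the Ena/VASP proteins join the adhesion to actin filaments. In the mammary gland, basal cells rest on the basement membrane through the laminin receptors α6β4, α3β1 and α6β1.

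Ly6a was lower on every shSca-1 array (log2 fold change -4.17, standard error 0.36, limma adjusted p = 0.051). The basal keratins Krt5 and Krt14 were bright on all 6 arrays. The array of shLuc replicate 3 stood apart from the others. The summed intensity of 10 luminal markers, Krt8 and Krt18 among them, was 21650 on it, 356 to 378 on the other shLuc arrays and 381 to 440 on the shSca-1 arrays, and 8 of the 10 were at least 4 times as bright on it as on any other array. The summed intensity of 4 basal markers was 13310 on it and 23040 to 27350 on the other 5. Its highest correlation with another array was 0.924, against 0.957 to 0.963 for the rest. The fold changes of adhesion genes are therefore given on 6 arrays and again without shLuc replicate 3.

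On 6 arrays, no adhesion gene passed an adjusted p of 0.05 (limma, Benjamini-Hochberg over all probe sets), and none of the 18193 genes did (0.0%). At an unadjusted p under 0.05, Itga2 and Parvb were higher in shSca-1 cells, where 3.57% of all genes were higher, and Lpp was lower, where 7.05% were lower. On the 5 arrays without shLuc replicate 3 the same unadjusted p gave Itga2 and Parvb as higher (7.22% of all genes) and 7 genes as lower, Tln1, Lims2, Ptk2b, Tns3, Zyx, Lpp and Flna (12.5% of all genes). The thresholds of the study are an unadjusted p under 0.01 with a fold change over 1.5. The study set them on a t-test, and here they are set on the limma p unless another test is named. At them Itga2 alone of the 39 was higher and Lpp alone was lower, or 2.56% each. Over all genes 0.528% were higher and 1.52% were lower at those thresholds. With the methods' t-test on the same 6 arrays neither Itga2 nor Lpp passed (unadjusted p = 0.031 and 0.034). Without shLuc replicate 3, Tns3 and Lpp fell at an adjusted p under 0.05 (limma), which is 5.13% of the 39 beside 2.73% of all genes. None of the 39 rose at that level, where 1.17% of all genes did. At the thresholds of the study Lims2, Tns3 and Lpp were lower (7.69%, beside 2.91% of all genes) and none was higher (1.08% of all genes). With quantile normalization or median centring of the same 5 arrays Itga2 was also past these thresholds as higher (2.56%, beside 1.62% and 1.46% of all genes). With no trend in the variance Itgb3 was past them as higher (2.56%, beside 1.11%).

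**Figure D1:**
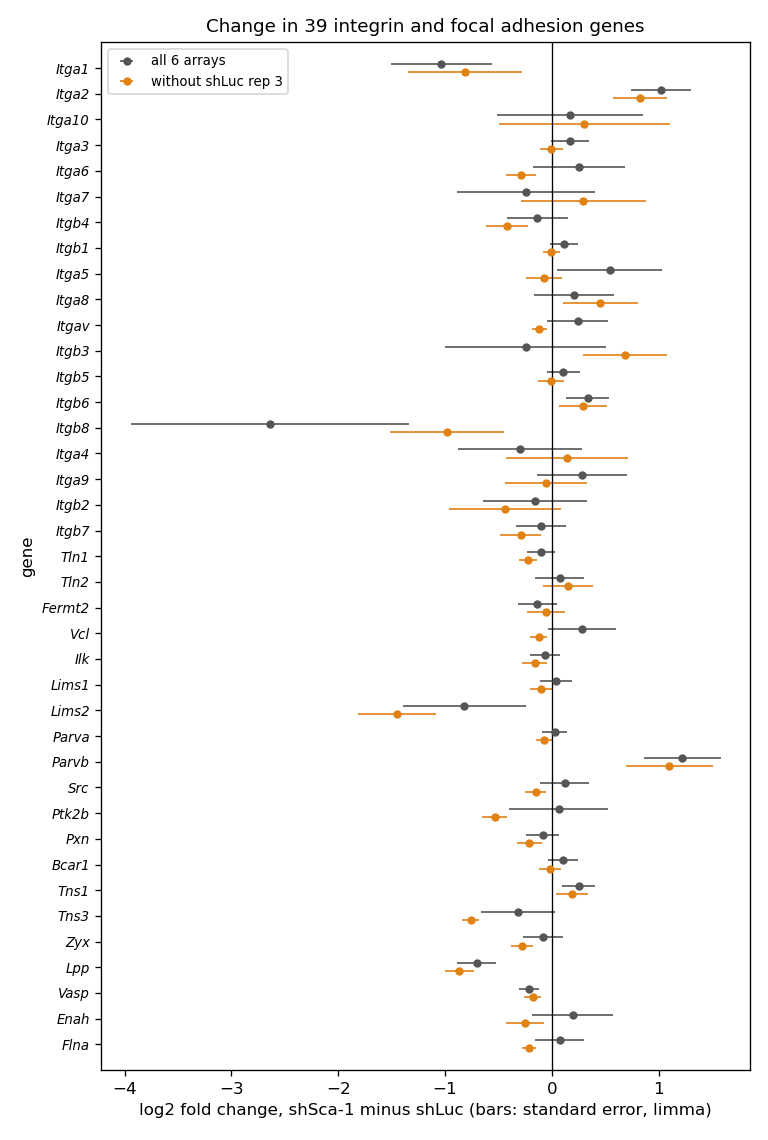
Log2 fold change, shSca-1 minus shLuc (horizontal axis, bars are limma standard errors) for the 39 genes, on all 6 arrays (grey) and without shLuc replicate 3 (orange). Most points lie within 0.5 of 0. Lpp, Itga2 and the dim Parvb have limma 95% confidence intervals (not drawn) that exclude 0 on both sets of arrays. Tns3 moves from -0.31 to -0.76 when shLuc replicate 3 is left out.

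The promoters of Lpp, Tns3 and Itga2 are shown because these genes, apart from Lims2, carry the calls at those thresholds. Each line gives a window from 250 bases before to 50 bases after a RefSeq transcript start (GRCm38.p6), 5′ to 3′ on the gene's strand, with capitals marking GC boxes (GGGCGG, the core bound by Sp factors) and TEAD cores (GGAATG), searched on both strands.
Lpp, chr16:24393100-24393399, plus strand: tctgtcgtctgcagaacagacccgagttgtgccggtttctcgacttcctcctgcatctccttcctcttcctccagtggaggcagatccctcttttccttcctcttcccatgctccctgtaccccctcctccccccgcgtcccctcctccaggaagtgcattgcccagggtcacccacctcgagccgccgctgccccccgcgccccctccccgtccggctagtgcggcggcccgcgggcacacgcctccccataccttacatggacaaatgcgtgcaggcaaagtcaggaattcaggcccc
Lpp, chr16:24721605-24721904, plus strand: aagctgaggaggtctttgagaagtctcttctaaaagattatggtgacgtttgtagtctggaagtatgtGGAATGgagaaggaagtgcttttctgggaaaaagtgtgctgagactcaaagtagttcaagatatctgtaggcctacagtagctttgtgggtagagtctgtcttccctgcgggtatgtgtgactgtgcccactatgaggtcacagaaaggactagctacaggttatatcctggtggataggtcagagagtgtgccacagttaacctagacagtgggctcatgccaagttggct
Tns3, chr11:8664486-8664785, minus strand: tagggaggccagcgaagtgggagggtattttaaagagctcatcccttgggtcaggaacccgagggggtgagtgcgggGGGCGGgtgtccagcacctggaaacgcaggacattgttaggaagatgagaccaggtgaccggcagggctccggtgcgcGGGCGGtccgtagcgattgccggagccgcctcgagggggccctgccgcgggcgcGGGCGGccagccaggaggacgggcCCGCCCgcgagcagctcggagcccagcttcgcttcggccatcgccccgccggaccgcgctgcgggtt
Itga2, chr13:114932051-114932350, minus strand: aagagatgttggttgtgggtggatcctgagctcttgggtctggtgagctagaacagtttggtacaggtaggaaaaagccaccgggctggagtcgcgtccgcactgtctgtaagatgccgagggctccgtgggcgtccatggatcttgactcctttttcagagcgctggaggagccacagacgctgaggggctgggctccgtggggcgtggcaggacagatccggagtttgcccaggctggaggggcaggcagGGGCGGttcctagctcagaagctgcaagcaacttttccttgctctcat
The Tns3 window held 4 GC boxes and the Itga2 window 1, whereas neither Lpp window held one, and the second Lpp window held 1 TEAD core. Of 32 listed genes with 39 windows, 23 windows held a GC box, beside 35.7% of 32851 promoter windows in all. A TEAD core was in 5 of the 39 (Itga10, Itgb1, Vcl, Lpp and Flna), beside 14.7% of all windows. A CArG box, the element read by serum response factor, was in 3 (Itgb6, Vcl and Fermt2), beside 1.63%. A match is a description of the letters and does not show that a factor binds there.

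Lpp, a zyxin family LIM protein that sits at focal adhesions and cell contacts, was lower in shSca-1 cells. The normalized intensity, as deposited and on a linear scale, was 2320, 2124 and 1587 on shLuc replicates 1 to 3 and 1037, 1187 and 1472 on shSca-1 replicates 1 to 3. On this probe set the groups did not overlap, but shLuc replicate 3 and shSca-1 replicate 3 lay close together. The log2 fold change was -0.70 (standard error 0.18, unadjusted p = 0.0065, limma adjusted p = 0.33). It was -0.86 without shLuc replicate 3 (standard error 0.14, limma adjusted p = 0.023).

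Lpp had 8 probe sets of its own, 7 of them above the dimness limit, and all 8 had a negative fold change on 6 arrays, from -0.90 to -0.05. The groups overlapped on 6 of the 8, and the brightest was the 1 probe set past the thresholds of the study on 6 arrays. Without shLuc replicate 3, 5 of the 7 had an adjusted p under 0.05 (limma). The probe sets read the same RNA on the same arrays and are no replicates of one another. Lpp kept its call on 5 arrays when shSca-1 replicate 3 was also left out (limma adjusted p = 0.00031). It lost the call without shSca-1 replicate 1 or 2, at log2 fold changes of -0.75 and -0.85 (limma adjusted p = 0.056 and 0.14). In those fits 0.879% and 0.126% of all genes were lower at an adjusted p under 0.05, beside 2.73% on the 5 arrays. Far fewer genes could be called there, so the loss does not single out Lpp, though Tns3 kept its call. Lpp stayed past the thresholds of the study in both fits. On the 5 arrays its adjusted call was lost with a floor of 64, the methods' t-test or no trend in the variance (adjusted p = 0.32, 0.3 and 0.28). There 13, 1 and 0 of all 18193 genes were lower at an adjusted p under 0.05. Lpp also missed the thresholds of the study with the floor of 64 (limma unadjusted p = 0.018) and with the methods' t-test (unadjusted p = 0.022). Its log2 fold change was -0.80 and -0.93 when shLuc replicate 1 or 2 was also left out, which leaves a lone control array.

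**Figure D2:**
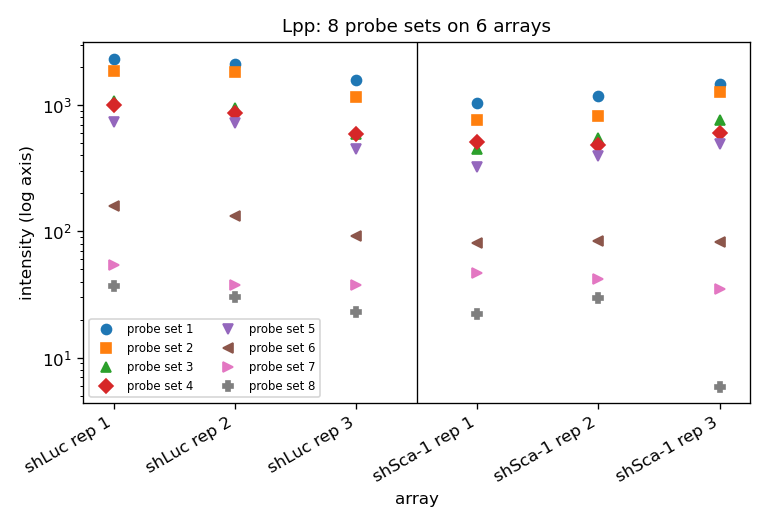
Intensity (log axis) of the 8 probe sets of Lpp on each of the 6 arrays, 1 symbol per probe set, numbered from the brightest. The 6 brightest lie lower on the shSca-1 arrays than on shLuc replicates 1 and 2, and shLuc replicate 3 lies between them for the brightest, at 1587.

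Tns3, a tensin that links integrin tails to actin and signaling adaptors, was 3252, 3169 and 1274 on the shLuc arrays and 1850, 2075 and 1780 on the shSca-1 arrays. All 3 shSca-1 arrays lay below shLuc replicates 1 and 2 and above shLuc replicate 3, so the groups overlap only through that array. On 6 arrays the log2 fold change was -0.31 (standard error 0.35, limma adjusted p = 0.82). It was -0.76 without shLuc replicate 3 (standard error 0.08, limma adjusted p = 0.0074). A second, dimmer probe set of Tns3 above the dimness limit did not pass. It had -0.10 on 6 arrays and -0.51 without shLuc replicate 3 (limma adjusted p = 0.95 and 0.26). On the same 5 arrays the call of the brightest Tns3 probe set was lost with a floor of 64, the methods' t-test or no trend in the variance (adjusted p = 0.16, 0.19 and 0.24). In those fits 13, 1 and 0 of all 18193 genes were lower at an adjusted p under 0.05 and 7, 0 and 0 higher. Almost no gene could be called there, so the loss does not single out Tns3. Its log2 fold change was -0.74 and -0.78 when shLuc replicate 1 or 2 was also left out, which leaves a lone control array. The other tensin measured, Tns1, had log2 fold changes of 0.25 and 0.19 and did not pass either threshold.

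Itga2, the alpha subunit of the collagen receptor α2β1, was the 1 subunit past the thresholds on 6 arrays. It was a dim to moderate signal, at 50.4, 61.9 and 37.0 on the shLuc arrays and 82.9, 86.3 and 135 on the shSca-1 arrays. The groups did not overlap, and shSca-1 replicate 3 was the highest. The log2 fold change was 1.02 (standard error 0.28, unadjusted p = 0.0087, limma adjusted p = 0.35). It was 0.82 on the 5 arrays without shLuc replicate 3 (standard error 0.25, limma adjusted p = 0.15). The other alpha subunits of collagen receptors, Itga1 and Itga10, were dim and had log2 fold changes of -1.03 and 0.17 on 6 arrays, with adjusted p of 0.57 and 0.96 (limma), and -0.82 and 0.31 without shLuc replicate 3.

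Itga5, which pairs with β1 as the fibronectin receptor, was 243, 250 and 68.6 on the shLuc arrays and 213, 295 and 205 on the shSca-1 arrays. The low value was shLuc replicate 3 alone, and the shSca-1 arrays lay on either side of the other shLuc arrays. The log2 fold change was 0.54 on 6 arrays (95% confidence interval -0.62 to 1.71, limma adjusted p = 0.78). On the other 5 arrays it was -0.07 (95% confidence interval -0.46 to 0.32, limma adjusted p = 0.89). The sign of the Itga5 value therefore rests on 1 control array.

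Itga6, the laminin receptor subunit that pairs with β4 in hemidesmosomes or with β1, was 5473, 5272 and 1740 on the shLuc arrays and 3963, 3889 and 5503 on the shSca-1 arrays. Its partner Itgb4 was 2697, 3094 and 1606 on the shLuc arrays and 1835, 1871 and 2942 on the shSca-1 arrays. On these probe sets shSca-1 replicates 1 and 2 lay below shLuc replicates 1 and 2 in both genes. There shSca-1 replicate 3 lay near those shLuc arrays, and shLuc replicate 3 was the lowest of all. The log2 fold changes were 0.25 for Itga6 and -0.14 for Itgb4 on 6 arrays and -0.29 and -0.42 without shLuc replicate 3, and neither gene passed the test. On a second bright Itga6 probe set all shSca-1 arrays (2382, 2228 and 3137) lay below shLuc replicates 1 and 2 (3759 and 3765). That probe set had 0.23 on 6 arrays and -0.56 without shLuc replicate 3 (limma adjusted p = 0.93 and 0.079). Trp63, the basal regulator among the markers, was 2950, 2870 and 939 on the shLuc arrays and 1531, 1464 and 2898 on the shSca-1 arrays. The other basal markers differed from it. Krt5 was 9576, 9968 and 3141 and then 10290, 10050 and 11430. Krt14 was 10090, 10190 and 7779 and then 10550, 10700 and 11850, and Krt17 was 1583, 1655 and 1454 and then 832, 825 and 1171. The part of Trp63 in the values of Itga6 and Itgb4 was not tested.

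The common β1 subunit Itgb1 was 3098, 3083 and 2401 on the shLuc arrays and 2989, 2889 and 3374 on the shSca-1 arrays. Itga3, the α3 laminin receptor subunit, was 1916, 1968 and 1336 on the shLuc arrays and 1841, 1748 and 2245 on the shSca-1 arrays. Itgav, the alpha subunit of the vitronectin receptors, was 3131, 3154 and 1486 on the shLuc arrays and 3059, 2691 and 2961 on the shSca-1 arrays. Each of the 3 was lowest on shLuc replicate 3, and the shSca-1 arrays overlapped the other shLuc arrays or lay close to them. Without shLuc replicate 3 the log2 fold change of Itgb1 was -0.01 (95% confidence interval -0.19 to 0.18), that of Itga3 -0.01 (-0.26 to 0.24) and that of Itgav -0.12 (-0.29 to 0.06). On 6 arrays they were 0.11, 0.17 and 0.24, with limma adjusted p of 0.82, 0.81 and 0.83.

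Among the dim subunits, Itgb8, Itgb3, Itga7, Itga1 and Itga4 were brightest on shLuc replicate 3, the last 3 at 45.0, 32.7 and 30.8. Itgb8 and Itgb3 are both partners of αv. Itgb8 was 17.0, 13.9 and 482 on the shLuc arrays and 8.16, 11.6 and 5.00 on the shSca-1 arrays. Itgb3 was 10.9, 10.9 and 75.8 on the shLuc arrays and 15.4, 18.9 and 18.7 on the shSca-1 arrays. Itgb8 was the 1 gene of the 39 at an intensity of 100 or more and 4 times every other array on a single array, and that array also carried the luminal markers. The log2 fold change of Itgb8 was -2.64 on 6 arrays and -0.98 without that array (limma adjusted p = 0.60 and 0.43), and that of Itgb3 was -0.24 and 0.69. The other RGD receptor subunits Itgb5, Itgb6 and Itga8 had log2 fold changes of 0.11, 0.34 and 0.21 on 6 arrays and -0.01, 0.29 and 0.46 without shLuc replicate 3, and none of the leukocyte-type subunits Itga4, Itga9, Itgb2 and Itgb7 passed a threshold.

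**Figure D3:**
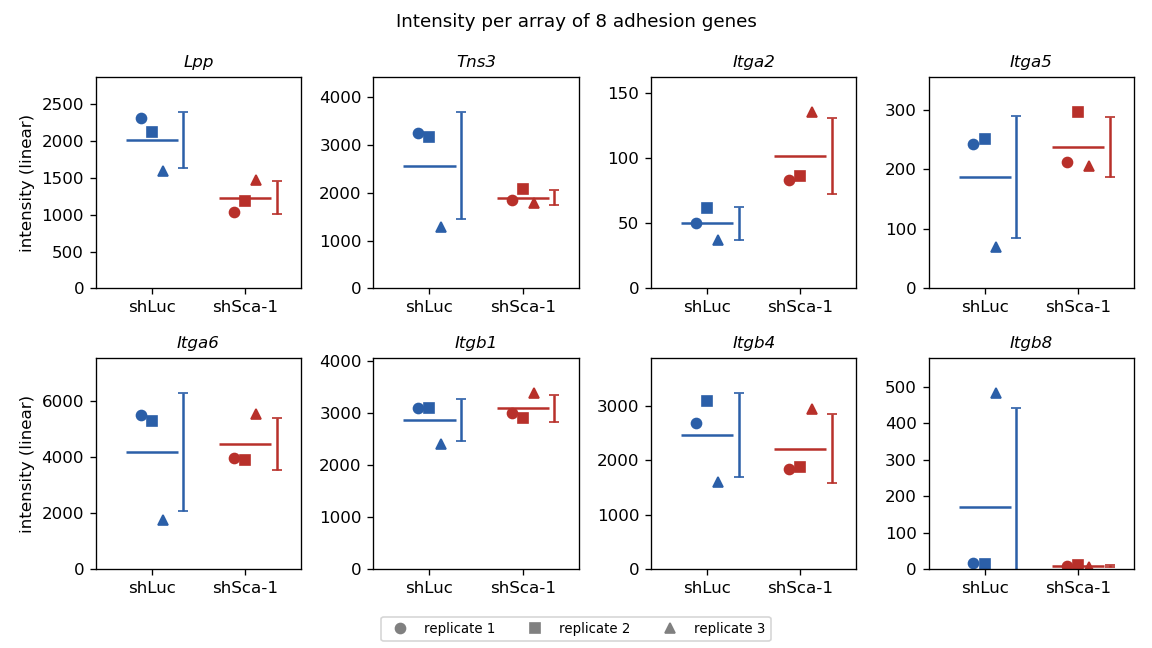
Intensity on a linear axis of 8 genes on each array, with the mean (line) and SD (bar beside it) of the 3 shLuc (blue) and 3 shSca-1 (red) arrays; the symbol gives the replicate number, and the bar of Itgb8 is cut off at 0. shLuc replicate 3 is the lowest shLuc array in each panel but that of Itgb8, where it is at 482.

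No gene of the inner adhesion plaque passed the thresholds of the study on 6 arrays apart from Lpp. For the integrin activators talin (Tln1, Tln2), kindlin-2 (Fermt2) and for vinculin (Vcl), log2 fold changes ran from -0.14 to 0.28 on 6 arrays and from -0.22 to 0.15 without shLuc replicate 3. For Src, the kinase Ptk2b (Pyk2), paxillin (Pxn) and p130Cas (Bcar1) they ran from -0.09 to 0.12 and from -0.53 to -0.01. Ptk2b was 791, 771 and 226 on the shLuc arrays and 499, 501 and 627 on the shSca-1 arrays. All 3 shSca-1 arrays of Ptk2b lay between shLuc replicate 3 and the other shLuc arrays, and its change without shLuc replicate 3, -0.53, missed the adjusted threshold (limma adjusted p = 0.059), which it passed with quantile normalization of those 5 arrays.

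In the complex of integrin-linked kinase, PINCH and parvin, which ties β1 and β3 tails to actin, Ilk, Lims1 and Parva had log2 fold changes between -0.16 and 0.04 on either set of arrays. Lims2 (PINCH2) was 81.6, 60.5 and 19.0 on the shLuc arrays and 23.9, 38.9 and 18.4 on the shSca-1 arrays. Its shSca-1 arrays lay below shLuc replicates 1 and 2 and overlapped shLuc replicate 3. The log2 fold change of Lims2 was -0.82 on 6 arrays and -1.45 without shLuc replicate 3 (limma adjusted p = 0.72 and 0.090). Parvb (β-parvin) was 17.8, 9.61 and 10.2 on the shLuc arrays and 24.5, 34.4 and 26.1 on the shSca-1 arrays, with no overlap, all dim. The log2 fold change was 1.22 on 6 arrays and 1.10 without shLuc replicate 3 (limma adjusted p = 0.37 and 0.23). Among the actin linkers beside Lpp, the anti-capping protein Enah and its relative Vasp, zyxin (Zyx) and filamin A (Flna) had log2 fold changes between -0.21 and 0.20 on 6 arrays and between -0.28 and -0.18 without shLuc replicate 3.

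shLuc replicate 3 was the lowest of the 6 arrays for 24 of the 31 genes above the dimness limit (77.4%), beside 28.1% of the 12922 genes above it. On 6 arrays 11 of the 31 had a negative fold change, with a median log2 fold change of 0.07, beside 56.2% negative and a median of -0.04 over all genes above the limit. Without shLuc replicate 3, 26 of the 31 (83.9%) were negative, with a median of -0.12, beside 56.8% and -0.05. The intensities of the luminal markers were high on the same array, and their part in the shift was not tested.

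**Figure D4:**
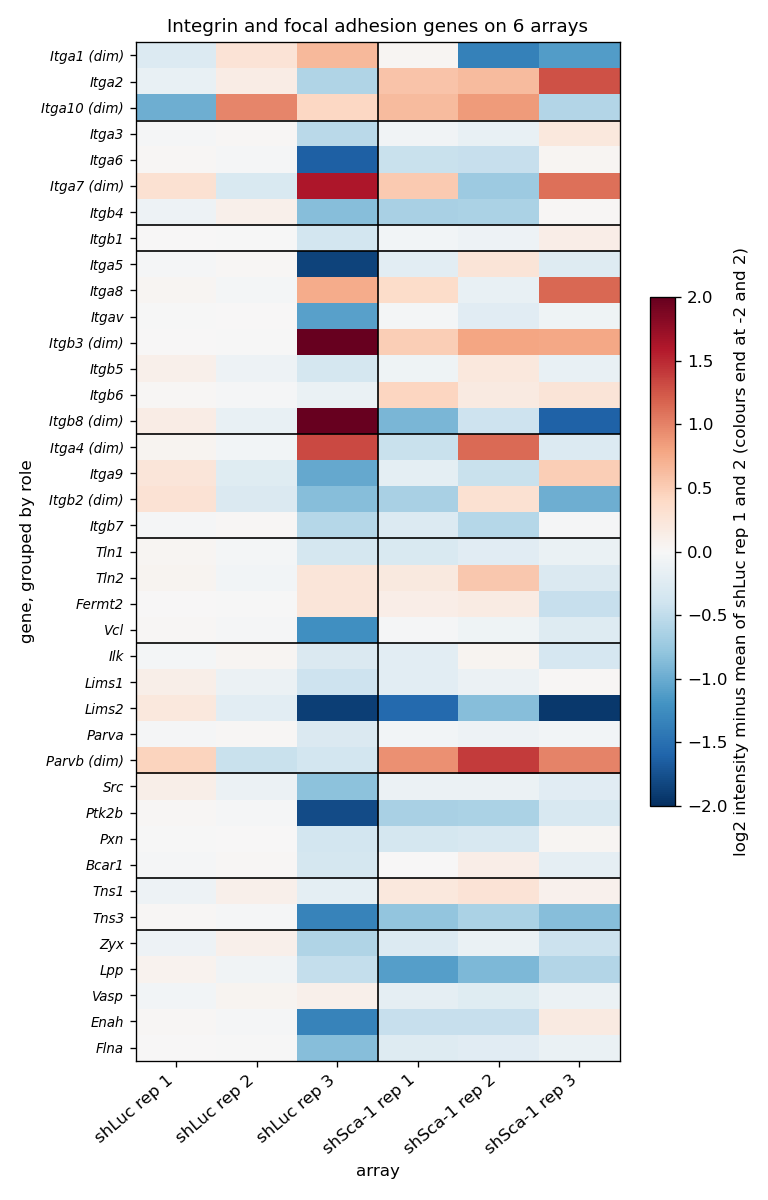
Log2 intensity of each of the 39 genes (rows, grouped by role) on each array (columns), minus the mean of shLuc replicates 1 and 2, with red above and blue below that mean. The column of shLuc replicate 3 is the bluest, with 24 of the 31 genes above the dimness limit at their lowest there. Itgb8, Itgb3, Itga7, Itga4, Itga8 and Itga1 are among the genes above the mean in that column.

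The calls also depended on shSca-1 replicate 3, among the adhesion genes and among all genes. With shLuc replicate 3 and shSca-1 replicate 3 both left out, 8 genes fell at an adjusted p under 0.05 (limma): Itga6, Itgb4, Ptk2b, Pxn, Tns3, Lpp, Enah and Flna. These were 20.5% of the 39, beside 9.21% of all genes lower in that fit of 2 arrays against 2, and none of the 39 was higher, beside 3.19%. With all 3 shSca-1 arrays and shLuc replicates 1 and 2, only Tns3 and Lpp of these did (5.13%, beside 2.73% of all genes). Of the 31 genes above the dimness limit, shSca-1 replicate 3 was the highest shSca-1 array for 16 (51.6%) and the lowest for 12. Among the 12922 genes above the limit it was the highest for 5880 (45.5%) and the lowest for 3656. For 22 genes with more than 1 probe set above the limit, the probe sets of 16 agreed in sign on 6 arrays and those of 15 without shLuc replicate 3.

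Other genes of the adhesion site were taken from a list of 75 adhesome genes, 69 of them measured. On 6 arrays Ptprf, a receptor tyrosine phosphatase, and Sdc4, a syndecan co-receptor for fibronectin, were lower at the thresholds of the study (2.90%, beside 1.52% of all genes) and none was higher. Sdc4 was 525, 496 and 833 on the shLuc arrays and 319.5, 299.8 and 322 on the shSca-1 arrays, and Ptprf 3233, 3284 and 2797 and then 1323, 1386 and 2350. Neither gene overlapped between groups, and in both shSca-1 replicates 1 and 2 were well below every shLuc array. Both were named for a p-value from these same arrays, so the lack of overlap adds no support. Their log2 fold changes were -0.94 and -0.93 (limma adjusted p = 0.25 and 0.29) on 6 arrays, and -0.70 and -1.0 without shLuc replicate 3 (limma adjusted p = 0.012 and 0.062). Without shLuc replicate 3, Csrp1, Fblim1, Actn4, Svil and Sdc4 fell at an adjusted p under 0.05 (7.25%, beside 2.73% of all genes). Actn4, the actin crosslinker α-actinin-4, was 2476, 2702 and 2962 on the shLuc arrays and 1741, 1921 and 1974 on the shSca-1 arrays. The groups of Actn4 did not overlap, and the log2 fold change was -0.53 on 6 arrays and -0.46 without shLuc replicate 3 (limma adjusted p = 0.21 and 0.029).

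Of 36 listed integrin ligands, 33 were measured. Lamb2, a laminin β2 chain, was the 1 ligand past the thresholds of the study on 6 arrays (3.03%, beside 1.52% of all genes lower), at 101, 82.6 and 114 on the shLuc arrays and 40.1, 48.8 and 49.8 on the shSca-1 arrays. The groups of Lamb2 did not overlap, and its log2 fold change was -1.10 on 6 arrays and -0.99 without shLuc replicate 3 (limma adjusted p = 0.20 and 0.058). Lamb3, the β3 chain of laminin-332, was 1235, 1292 and 392 on the shLuc arrays and 1975, 2101 and 1883 on the shSca-1 arrays. Lamb3 lay higher on every shSca-1 array than on any shLuc array. Its log2 fold change was 1.21 on 6 arrays and 0.65 without shLuc replicate 3 (limma adjusted p = 0.47 and 0.0089), and it was the 1 ligand that rose at an adjusted p under 0.05 on the 5 arrays (3.03%, beside 1.17% of all genes).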

How the data were processed

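RNA from 3 shLuc and 3 shSca-1 samples of Wnt1-YL cells was hybridized to Affymetrix arrays. The authors ran dChip (perfect match minus mismatch, invariant set normalization between arrays; version not stated) and deposited linear intensity values for 45101 probe sets. Subtracting mismatch signal makes dim probe sets noisy, and precision is limited by the number of arrays.

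After a floor of 1, intensities were put on the log2 scale, without the 64 control probe sets. Probe sets were named from the platform annotation. limma 3.58.1 (R 4.3.3) was fitted to the groups by lmFit and eBayes with a variance trend and no block, and Benjamini-Hochberg adjustment covered 45037 probe sets. The script was tested on simulated data. The files name no build for the probe sets, so no position is given for them.

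The members and lists were chosen with earlier results of these data known. All 39 measured genes were accounted for. Those past a threshold and the integrins studied by flow cytometry got their value on every array, as did a gene bright on 1 array only. Ptk2b, Lims2, Parvb and Trp63 were added after their values were seen. Of the adhesome and ligand lists, genes past a threshold were named, at most 6 each. Where groups are said not to overlap, the gene was named for its values on the same arrays. That is a description only, and the share of all genes without overlap was not counted. Replicates were not paired in the fit. Deviations of same-numbered arrays from their group means correlated at -0.04, -0.02 and -0.03. These values cannot decide whether the samples were paired, since the shLuc mean includes shLuc replicate 3. Alternatives were other normalizations, floors of 16 and 64, a filter on dim probe sets, no variance trend, the methods' t-test, a replicate block, the mean of all probe sets and leaving out each array. Further settings on the 5 arrays that remain without shLuc replicate 3 were added after seeing the data. Flow cytometry, adhesion and transplant data were not used here.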

Additional observations from a re-analysis of the deposited data

How the results depend on the processing

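The calls at the thresholds of the study were fragile, and the cause was not tested. For the alternatives on 6 arrays, and for leaving out an array other than shLuc replicate 3, the share of all genes past them was not counted. The count of higher genes, 1 as reported, was 2 with quantile normalization or median centring (Itga2 and Parvb), 0 with a floor of 64 or the methods' t-test, and 0 to 1 when each array was left out in turn. The 1 higher gene was Parvb, not Itga2, with a floor of 16, with no trend in the variance and without shLuc replicate 1, and of the 6 fits that left out an array Itga2 was called in that without shLuc replicate 2 alone. The count of lower genes, also 1, was 0 with median centring, a floor of 16 or 64, no trend in the variance, the methods' t-test or the mean of all probe sets, and 0 to 3 when each array was left out, with 3 without shLuc replicate 3. With the replicate number as a replicate block, no gene was higher or lower at these thresholds (0 and 0), and the arrays share only a number. The count at an adjusted p under 0.05, 0 as reported, was 2 without shLuc replicate 3 and 0 without any other single array. On the 5 arrays, where it was 2, it was 3 with quantile normalization (Ptk2b, Tns3 and Lpp, 7.69%, beside 3.39% of all genes lower). It was 0 with a floor of 64, the methods' t-test or no trend. In those fits 13, 1 and 0 of all 18193 genes were lower and 7, 0 and 0 higher, so almost no gene could be called. Also leaving out shSca-1 replicate 3 gave 8 (20.5%, beside 9.21% of all genes lower), and shSca-1 replicate 1 or 2 gave 1 (2.56%, beside 0.879% and 0.126%). Leaving out either shLuc array leaves a lone control, and no count is given for it. The count of lower genes on the 5 arrays at the thresholds of the study was 3 (7.69%, beside 2.91% of all genes). It was 5 without shSca-1 replicate 3 (12.8%, beside 4.49%). It was 1 with a floor of 64 or the methods' t-test (2.56%, beside 1.41% and 1.43%).

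The sign turned for Itga3, Itga5, Itga6, Itgav, Itgb1 and Itgb3 without shLuc replicate 3, and for Itgb4 without shLuc replicate 2. With each array left out in turn, the log2 fold change ran from -0.0064 to 0.27 for Itga3, from -0.072 to 0.86 for Itga5, from -0.29 to 0.54 for Itga6, from -0.12 to 0.43 for Itgav and from -0.0064 to 0.18 for Itgb1, where the negative end is that without shLuc replicate 3. It ran from -0.71 to 0.69 for Itgb3, with 0.69 without shLuc replicate 3, and from -0.42 to 0.055 for Itgb4, with 0.055 without shLuc replicate 2. Lpp kept its sign under all 15 alternatives, from -0.86 to -0.59, Tns3 from -0.76 to -0.08 and Itga2 from 0.63 to 1.19. The filter on dim probe sets, no trend in the variance, the methods' t-test and the replicate block cannot change these log2 fold changes. The floors could not move Lpp or Tns3, which lay above them on every array. The lower floor and the mean of all probe sets could not move Itga2, which had no other probe set. Those settings are therefore no check of the sign. Itgb3 and Itgb8 had no value under the filter on dim probe sets. The median of the 39 log2 fold changes was 0.06 as reported and -0.12 to 0.11 when each array was left out.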
